A study of Homo sapiens with 9 samples.

Results

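The genes described here are 10 inflammatory genes driven by the transcription factor NF-kB: NFKBIA, TNFAIP3, CXCL8, CXCL1, CCL2, IL6, LIF, IL1B, ICAM1 and PTGS2. They were taken by gene symbol from an array of 14207 genes, through probe sets that name 1 gene, with the highest mean where a gene had several. This gave values for 9 of the 10, because CXCL1 lay only on a probe set that also names another gene. Levels were measured on 9 arrays of ARPE-19 cells, an established human retinal pigment epithelial line, with 3 arrays per group. The groups were vehicle control, 100 µg/ml and 250 µg/ml cigarette smoke condensate, which the labels also call an extract and describe as a commercial DMSO stock of the smoke collected from research cigarettes. All 3 groups shared the same culture conditions, in which the serum of confluent cells was replaced by albumin. The vehicle is named only as such, and the sources used here do not give the time of exposure. Because nothing states that the 3 arrays of a group came from separate cultures, a p-value here speaks to the spread between arrays, which may be technical. In these bulk samples fewer cells of a type and less RNA per cell cannot be told apart.

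NF-kB is a family of dimers, most often of RELA with NFKB1, that IkB proteins such as NFKBIA hold in the cytoplasm. Cytokine and Toll-like receptors activate the IkB kinases, NFKBIA is degraded, and the freed dimers switch on chemokines, cytokines, adhesion molecules and also NFKBIA and TNFAIP3, which shut the pathway down again. In the retinal pigment epithelium the pathway is known for driving chemokine and IL6 release when the cells meet inflammatory cytokines.

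The promoters of NFKBIA, ICAM1, CXCL8 and IL6 are shown because the first pair lay above the floor of the arrays and the second pair at it, while all 4 hold an NF-kB type motif. RefSeq promoters (GRCh38.p14) were matched for 8 of the 10 genes, all except CCL2 and LIF, and the 250 bases before the annotated start were searched. The first motif was GGAANTTCC, which reads alike on both strands. The second was GGG, then any 2 bases, then TTTCC, sought on both strands. They were chosen with known sites of these genes in mind, and both can cover the same bases. Either motif was found in 6 of the 8 promoters and in 2.41% of 35116 RefSeq promoters. The first motif was in 0.826% of all promoters and the second in 1.73%. A match is a description of the letters and not a measured binding site. The windows of IL1B and PTGS2 hold neither motif, which does not show that they lack an NF-kB site, since sites of other letters were not searched. Capitals mark the motifs, on the gene's own strand, 5′ to 3′. In GRCh38.p14 the window of NFKBIA is chr14:35404750-35404999 on the minus strand, that of ICAM1 is chr19:10270870-10271119 on the plus strand, that of CXCL8 is chr4:73740319-73740568 on the plus strand and that of IL6 is chr7:22726950-22727199 on the plus strand.
NFKBIA: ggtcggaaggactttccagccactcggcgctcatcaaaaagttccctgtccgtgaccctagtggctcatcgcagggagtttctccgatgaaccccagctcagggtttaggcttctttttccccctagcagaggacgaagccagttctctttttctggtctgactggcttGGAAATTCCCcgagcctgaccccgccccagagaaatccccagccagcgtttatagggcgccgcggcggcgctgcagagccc
ICAM1: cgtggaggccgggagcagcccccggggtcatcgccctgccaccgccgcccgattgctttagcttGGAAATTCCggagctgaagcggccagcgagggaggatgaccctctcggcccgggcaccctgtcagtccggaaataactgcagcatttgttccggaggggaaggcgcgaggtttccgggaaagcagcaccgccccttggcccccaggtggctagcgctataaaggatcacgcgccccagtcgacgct
CXCL8: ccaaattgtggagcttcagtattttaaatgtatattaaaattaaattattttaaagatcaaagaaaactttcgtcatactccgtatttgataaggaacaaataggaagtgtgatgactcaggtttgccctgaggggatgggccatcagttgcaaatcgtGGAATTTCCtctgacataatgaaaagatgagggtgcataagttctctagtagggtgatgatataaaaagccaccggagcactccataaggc
IL6: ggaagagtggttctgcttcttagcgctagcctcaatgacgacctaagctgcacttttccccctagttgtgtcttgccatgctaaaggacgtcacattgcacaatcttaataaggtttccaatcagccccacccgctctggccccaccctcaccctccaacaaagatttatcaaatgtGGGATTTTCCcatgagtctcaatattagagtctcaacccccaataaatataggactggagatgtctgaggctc
The capitals begin 81 bases before the start in NFKBIA, 186 in ICAM1, 91 in CXCL8 and 73 in IL6. The NFKBIA stretch holds both motifs, overlapping, with the second read on the other strand. CXCL1 also holds both in overlap, and TNFAIP3 holds the second motif on the other strand at 2 places, 67 and 55 bases before its start.

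None of the 9 measured genes passed the test at either dose. Of these genes, CCL2, LIF and NFKBIA stood well above the floor of the arrays at every dose and ICAM1 stood just above it by its mean. CXCL8, IL6, TNFAIP3 and PTGS2 lay in the range of the olfactory receptor genes, taken here as the floor, and IL1B lay there with vehicle and just above it at both doses. HMOX1, the haem-degrading enzyme of the oxidative stress response, rose on the same arrays by 2.46 ± 0.29 log2 units at 100 µg/ml and by 4.23 ± 0.29 at 250 µg/ml (SE, n = 3 per group). Its adjusted p from limma were 0.048 and 0.0042. The 250 µg/ml call of HMOX1 held in all 19 other settings, with an adjusted p of at most 0.027. Its 100 µg/ml call was lost in 10 of the 19, where the adjusted p reached 0.31.

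The test was limma on the log2 values of all 9 arrays, with p-values adjusted by the Benjamini-Hochberg method over the 14207 genes and a threshold of 0.05. At 100 µg/ml against vehicle 0 of the 9 genes passed, beside 0.0633% of all genes. At 250 µg/ml against vehicle 0 of the 9 passed, beside 0.549% of all genes. At an unadjusted p under 0.05 there were 2 of the 9, IL1B and ICAM1, at either dose, beside 14.6% of all genes at 100 µg/ml and 16.6% at 250 µg/ml. The means of 6 of the 9 genes lay below vehicle at 100 µg/ml, as did 59.2% of all genes, and those of 7 of the 9 at 250 µg/ml, as did 57.3% of all genes. After quantile normalization of the arrays these counts were 4 and 6 of 9, beside 50.7% and 49.7% of all genes. The median difference over the 9 genes was -0.09 at 100 µg/ml and -0.17 at 250 µg/ml, beside -0.05 and -0.04 over all genes.

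The floor was judged in 2 ways, since no detection calls were used here. The lower quartile of all probe sets lay between 2.89 and 3.10 log2 units on the 9 arrays. The 220 olfactory receptor genes on the array, which this line is not known to use, had means with a median of 2.43 and a 95th percentile of 3.15, and 27.3% of all genes lay below that percentile. By the second measure 5 of the 9 genes had a mean over the 9 arrays at the floor. Of these, IL1B differed by group, with means of 2.85 ± 0.17 with vehicle, 3.32 ± 0.067 at 100 µg/ml and 3.24 ± 0.19 at 250 µg/ml (SD, n = 3 each), and the other 4 were at the floor in every group mean. IL1B lay above that percentile on 0 of 3 vehicle arrays, 3 of 3 at 100 µg/ml and 2 of 3 at 250 µg/ml. PTGS2 was below the lower quartile on all 9 arrays, CXCL8 on 8, IL6 on 7, and IL1B and TNFAIP3 on 3 each. CCL2, LIF, NFKBIA and ICAM1 were above it on every array. No gene of the 9 was below the 10th percentile on any array. A value at the floor cannot separate low expression from none, and a fold change there is compressed.

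**Figure D1:**
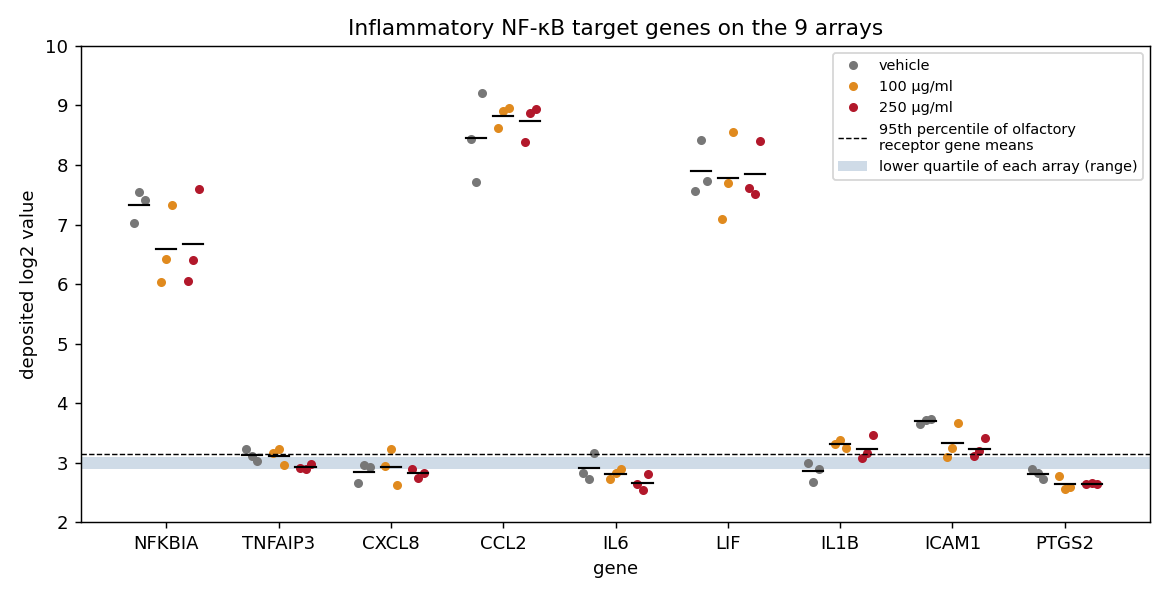
Deposited log2 value (vertical axis) of the 9 measured genes (horizontal axis) on each array, with vehicle in grey, 100 µg/ml in orange and 250 µg/ml in red, in the order of the array numbers within each group. Black bars are group means of 3 arrays, the dashed line is the olfactory receptor 95th percentile (3.15) and the blue band the range of the arrays' lower quartiles (2.89 to 3.10); NFKBIA, CCL2 and LIF stand apart above both.

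NFKBIA encodes IkB-alpha, the inhibitor that holds NF-kB in the cytoplasm and is itself a target gene. It had 7.03, 7.54 and 7.42 log2 units on vehicle arrays 1 to 3, 6.03, 6.41 and 7.33 at 100 µg/ml and 6.05, 6.40 and 7.59 at 250 µg/ml. At both doses arrays 1 and 2 lay below every vehicle array, while array 3 lay within the vehicle range at 100 µg/ml and above it at 250 µg/ml. The group means were 7.33 ± 0.27 with vehicle, 6.59 ± 0.67 at 100 µg/ml and 6.68 ± 0.81 at 250 µg/ml (SD, n = 3 each). The difference from vehicle was -0.74 ± 0.44 at 100 µg/ml (SE, limma adjusted p = 0.46) and -0.65 ± 0.44 at 250 µg/ml (adjusted p = 0.48). Its 95% intervals, -1.74 to 0.26 and -1.65 to 0.35, hold 0 and were the widest of the 9 genes.

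Array 3 held the highest NFKBIA value of each dose, so leaving it out could only make the fall larger. Without the arrays numbered 3 of both doses the NFKBIA difference was -1.11 at 100 µg/ml (limma adjusted p = 0.099) and -1.11 at 250 µg/ml (adjusted p = 0.075). Neither passed. The spread within groups put NFKBIA among the most variable genes, with a pooled SD of 0.626 beside a median of 0.217 over all genes. Same-numbered arrays of both doses also deviated alike over all genes, and this was not particular to number 3. Deviations from the group mean correlated at 0.68 between the arrays numbered 3 of both doses, at 0.60 between arrays 1 and at 0.44 between arrays 2. Between array 3 of 100 µg/ml and arrays 1 and 2 of 250 µg/ml they correlated at -0.56 to -0.30. The deviations of the 3 arrays of a group sum to 0, so these negative values are no separate evidence. The part of this pattern by array number in the NFKBIA result was not tested.

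TNFAIP3 encodes A20, a ubiquitin-editing enzyme that shuts off signalling to the IkB kinases. Its values were 3.23, 3.11 and 3.03 on the vehicle arrays, 3.16, 3.22 and 2.97 at 100 µg/ml and 2.92, 2.90 and 2.97 at 250 µg/ml. The 250 µg/ml arrays lay just below the vehicle arrays, with no overlap, at the floor of the scale. TNFAIP3 lay above the olfactory receptor percentile on 1 of 3 vehicle arrays, 2 of 3 at 100 µg/ml and 0 of 3 at 250 µg/ml. The difference from vehicle was -0.01 ± 0.10 at 100 µg/ml and -0.20 ± 0.10 at 250 µg/ml (SE, limma adjusted p = 0.98 and 0.38). Over the 19 other settings the second ran from -0.24 to -0.10.

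CCL2, the chemokine that attracts monocytes, stood above the floor on every array. It had 8.44, 7.71 and 9.21 log2 units on the vehicle arrays, 8.62, 8.91 and 8.95 at 100 µg/ml and 8.39, 8.87 and 8.95 at 250 µg/ml. The vehicle arrays spanned all 6 dose arrays, with array 2 the lowest and array 3 the highest of all 9. The difference from vehicle was 0.37 ± 0.34 at 100 µg/ml (SE, limma adjusted p = 0.63) and 0.28 ± 0.34 at 250 µg/ml (adjusted p = 0.70). The interval at 250 µg/ml, -0.49 to 1.06, has an upper end of 2.08-fold and is too wide to show that the level was the same. Single vehicle arrays set the size: without vehicle array 2 the differences were 0.00 and -0.09, and without vehicle array 3 they were 0.75 and 0.66, none of which passed.

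CXCL8 encodes interleukin 8, the neutrophil chemokine. Its values were 2.66, 2.96 and 2.92 with vehicle, 2.94, 3.22 and 2.63 at 100 µg/ml and 2.90, 2.75 and 2.84 at 250 µg/ml, so the 3 groups overlapped. The difference from vehicle was 0.09 ± 0.16 at 100 µg/ml and -0.02 ± 0.16 at 250 µg/ml (SE, limma adjusted p = 0.84 and 0.97), and the second was 0.09 after quantile normalization. The interval at 250 µg/ml had an upper end of 1.27-fold on a scale that compresses folds at the floor. CXCL2 and CXCL3, of the same chemokine family as CXCL8, had means above the floor and differed from vehicle by -0.18 ± 0.12 and 0.08 ± 0.15 at 250 µg/ml (adjusted p = 0.48 and 0.82). Short stretches of these genes are alike, so their probe sets may share signal.

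Among the cytokines LIF, which signals through gp130 and supports photoreceptor survival in mice, was measured well above the floor. It had 7.56, 8.42 and 7.73 log2 units with vehicle, 7.10, 7.69 and 8.55 at 100 µg/ml and 7.62, 7.51 and 8.40 at 250 µg/ml. The groups overlapped throughout, and array 3 was the highest at both doses, as for NFKBIA. The difference was -0.13 ± 0.40 at 100 µg/ml and -0.06 ± 0.40 at 250 µg/ml (SE, limma adjusted p = 0.91 and 0.95), with intervals of -1.04 to 0.79 and -0.97 to 0.85. Without the arrays numbered 3 of both doses the differences were -0.51 and -0.34 (adjusted p = 0.45 and 0.59). Leaving out the highest array of each dose could only lower them.

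IL6, the acute-phase cytokine, had 2.83, 2.72 and 3.17 with vehicle, 2.72, 2.83 and 2.89 at 100 µg/ml and 2.65, 2.54 and 2.81 at 250 µg/ml. The groups overlapped and the difference was -0.09 ± 0.14 at 100 µg/ml and -0.24 ± 0.14 at 250 µg/ml (SE, limma adjusted p = 0.78 and 0.41). After quantile normalization the first was 0.02. IL6 had 2 probe sets, and they disagreed in the vehicle arrays: array 3 was the highest on the one used here and, at 2.74, the lowest on the other. On that other probe set the 250 µg/ml arrays, at 2.66, 2.66 and 2.71, lay below all vehicle arrays. With the mean of both probe sets IL6 had an unadjusted limma p under 0.05 at 250 µg/ml but did not pass after adjustment.

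IL1B encodes interleukin 1 beta, a pro-inflammatory cytokine that also activates the pathway through its receptor. It had 3.00, 2.67 and 2.90 with vehicle, 3.31, 3.39 and 3.25 at 100 µg/ml and 3.09, 3.17 and 3.46 at 250 µg/ml. All 6 dose arrays lay above all 3 vehicle arrays, the one gene of the 9 for which this held. The difference was 0.46 ± 0.13 at 100 µg/ml, with an interval of 0.16 to 0.76 and limma adjusted p = 0.22. The difference at 250 µg/ml was 0.38 ± 0.13, with an interval of 0.08 to 0.68 and adjusted p = 0.21. Arrays that do not overlap and lie higher were found in 6.41% of all genes at 100 µg/ml and 8.61% at 250 µg/ml. The gene's mean over the 9 arrays was 3.14, just under the olfactory receptor percentile. IL1A at 250 µg/ml differed from vehicle by -0.12 ± 0.25 (adjusted p = 0.84).

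ICAM1, an adhesion molecule that binds leukocyte integrins, had 3.64, 3.71 and 3.73 with vehicle, 3.10, 3.24 and 3.66 at 100 µg/ml and 3.11, 3.19 and 3.41 at 250 µg/ml. The 3 vehicle arrays were close together, the 250 µg/ml arrays lay below all of them, and array 3 was the highest at both doses. ICAM1 lay above the olfactory receptor percentile of 3.15 on 3 of 3 vehicle arrays and on 2 of 3 at each dose. Its lower values thus reach the floor, where a fold change is compressed. The difference was -0.36 ± 0.15 at 100 µg/ml, with an interval of -0.71 to -0.01 and limma adjusted p = 0.33. The 250 µg/ml difference was -0.46 ± 0.15, with an interval of -0.81 to -0.11 and adjusted p = 0.20. ICAM1 stayed below vehicle in all 19 other settings of the analysis at both doses and passed in none.

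PTGS2 encodes cyclooxygenase 2, the inducible enzyme of prostaglandin synthesis. It had 2.90, 2.82 and 2.72 with vehicle, 2.78, 2.56 and 2.59 at 100 µg/ml and 2.64, 2.66 and 2.64 at 250 µg/ml. The 250 µg/ml arrays lay below the vehicle arrays by a narrow margin at the floor. The difference was -0.17 ± 0.10 at 100 µg/ml and -0.17 ± 0.10 at 250 µg/ml (SE, limma adjusted p = 0.45 and 0.42). After quantile normalization the first was -0.05. Over the 18 other settings that held PTGS2 the second ran from -0.21 to -0.06. At 250 µg/ml 4 of the 9 genes had arrays that did not overlap vehicle, IL1B above and ICAM1, TNFAIP3 and PTGS2 below, where the share of all genes was 22.9%, or 8.61% above and 14.3% below. At 100 µg/ml it was 1 of 9, IL1B, beside 18.3% of all genes.

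**Figure D2:**
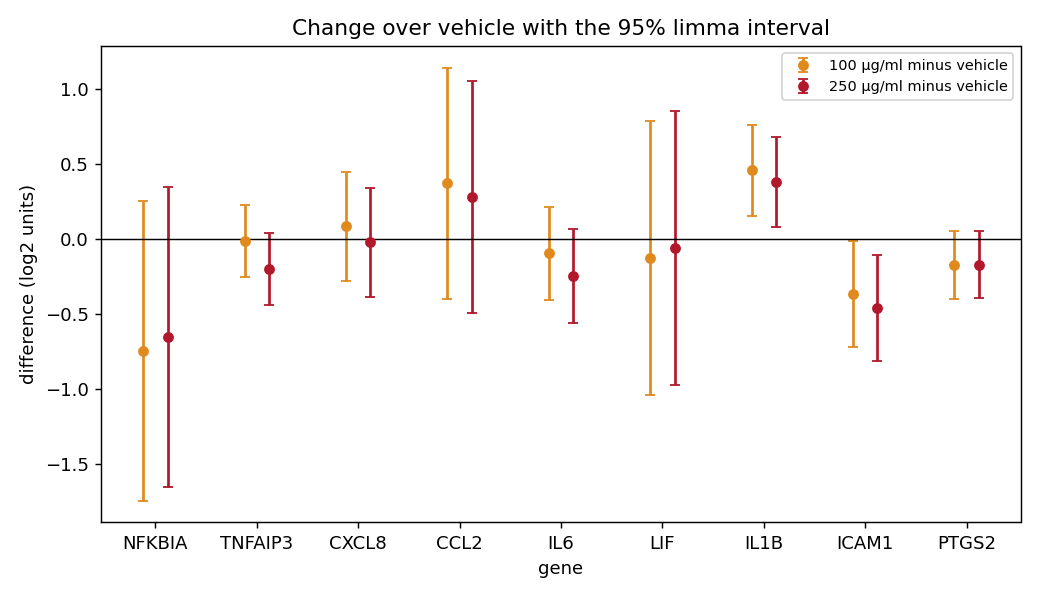
Difference from vehicle in log2 units (vertical axis) for each of the 9 genes (horizontal axis) at 100 µg/ml (orange) and 250 µg/ml (red), with the 95% interval of the limma fit. The intervals of IL1B lie above 0 and those of ICAM1 below it before adjustment over all genes, and NFKBIA, LIF and CCL2 have the widest intervals.

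Between 250 and 100 µg/ml 0 of the 9 genes passed, beside 0% of all genes, and 0 had an unadjusted p under 0.05, beside 1.84% of all genes. None had arrays that did not overlap, beside 6.17% of all genes. The differences ran from -0.19 ± 0.10 for TNFAIP3 to 0.09 ± 0.44 for NFKBIA (SE, limma adjusted p = 1.00 for each). This fit did not pair the arrays by number, so these SE hold the spread between numbers. With the array number as a block in limma 0 of the 9 genes passed. In that fit 0 had an unadjusted p under 0.05, beside 3.29% of all genes. Arrays of the same number lay close for NFKBIA, which differed between 250 and 100 µg/ml by 0.02 on arrays 1, by -0.01 on arrays 2 and by 0.27 on arrays 3. For CCL2 these differences were -0.23, -0.04 and -0.01.

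**Figure D3:**
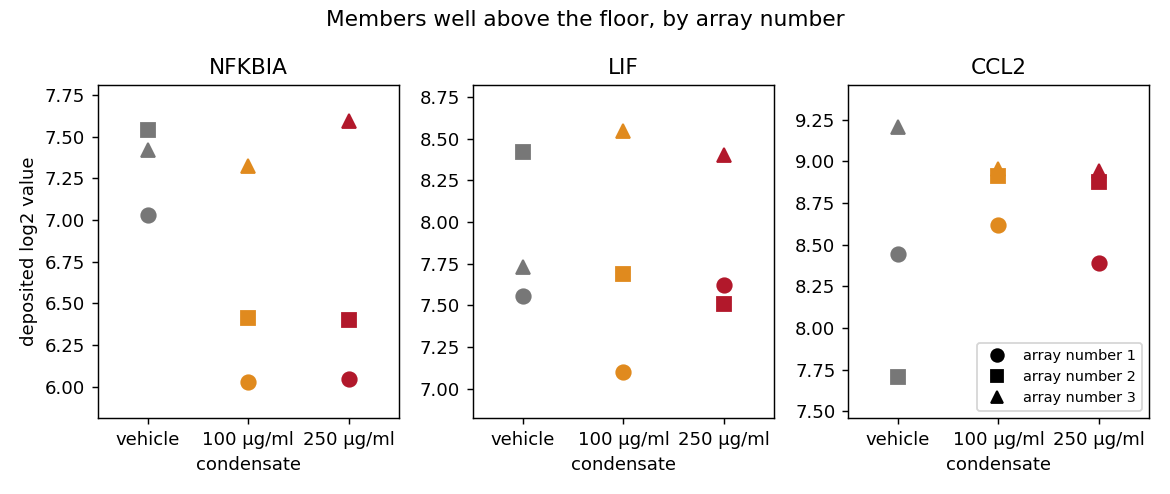
Deposited log2 value (vertical axis, each panel spanning 2 units) of NFKBIA, LIF and CCL2 with vehicle (grey), 100 µg/ml (orange) and 250 µg/ml (red), with circles, squares and triangles for array numbers 1, 2 and 3. The triangles of both doses stand above the circles and squares for NFKBIA and LIF, and the vehicle arrays of CCL2 span the dose arrays.

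For the genes with a range over 1 log2 unit and a mean above the floor, the most similar profiles were sought by the mean absolute difference of centred values over the 9 arrays. The nearest to NFKBIA were NDRG4 (0.13 log2 units), IL18 (0.14) and NRBP2 (0.14). IL18, an interleukin 1 family cytokine, had 10.40, 10.76 and 10.70 with vehicle, 9.63, 9.94 and 10.91 at 100 µg/ml and 9.55, 9.69 and 10.81 at 250 µg/ml, with array 3 the highest at both doses. The nearest to LIF were LDB1 (0.13), HMG20B (0.14) and MAN2B1 (0.14). The nearest to CCL2 were POLR2H (0.12), HAUS4 (0.14) and NEIL3 (0.14). No gene of the 9 was among the nearest of another.

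The other genes of the pathway were taken from lists. Of 14 subunits and inhibitors 12 were measured, and all 12 stood above the floor. None passed at either dose, and the median difference was -0.02 at 100 µg/ml and -0.02 at 250 µg/ml. RELA, the main activating subunit, differed from vehicle at 250 µg/ml by -0.07 ± 0.21 (limma adjusted p = 0.89), and its partner NFKB1 by 0.21 ± 0.15 (adjusted p = 0.51). The subunits of the non-canonical branch, NFKB2 and RELB, differed by 0.01 ± 0.12 and -0.26 ± 0.12 (adjusted p = 0.98 and 0.34). TNIP1, a partner of A20, had 7.30, 7.02 and 6.82 with vehicle, 6.46, 6.72 and 6.56 at 100 µg/ml and 6.30, 6.37 and 6.35 at 250 µg/ml, so every dose array lay below every vehicle array. Its difference at 250 µg/ml was -0.71 ± 0.14 (adjusted p = 0.061). NFKBIE, another IkB protein, differed at 250 µg/ml by -0.68 ± 0.26 (adjusted p = 0.25).

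Of 27 kinases and adaptors upstream 23 were measured, 22 of them above the floor, and none passed. Their median difference was -0.06 at 100 µg/ml and 0.15 at 250 µg/ml. TAB3, an adaptor of the kinase TAK1, differed at 250 µg/ml by 0.65 ± 0.18 and the IkB kinase subunit CHUK by 0.52 ± 0.22 (limma adjusted p = 0.14 and 0.29). Of 26 receptors and receptor ligands 23 were measured, 14 above the floor, and none passed. TNFRSF1A, the main TNF receptor, had 6.75, 6.55 and 6.72 with vehicle, 6.89, 7.19 and 7.08 at 100 µg/ml and 7.17, 7.45 and 7.58 at 250 µg/ml. Its arrays at both doses lay above the vehicle arrays, by 0.73 ± 0.14 at 250 µg/ml (adjusted p = 0.058). IL6ST, the gp130 receptor chain through which IL6 and LIF signal, differed at 250 µg/ml by 1.00 ± 0.36 and the interleukin 1 receptor IL1R1 by 0.57 ± 0.28 (adjusted p = 0.22 and 0.35).

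Of 50 other NF-kB targets 40 were measured, 24 of them above the floor. None passed, the median difference at 100 µg/ml was -0.11, and that at 250 µg/ml was -0.12. At 250 µg/ml 29 of the 40 had a mean below vehicle, beside 57.3% of all genes. Arrays did not overlap for 11 below and 2 above vehicle, beside 14.3% and 8.61% of all genes. At 100 µg/ml 28 had a mean below vehicle, beside 59.2% of all genes. Arrays there did not overlap for 3 below and 1 above, beside 18.3% in either direction. These counts include genes at the floor. Of those above the floor, the widest differences at 250 µg/ml were those of TAP1, the antigen peptide transporter, at 1.22 ± 0.29, and of GCH1, the first enzyme of tetrahydrobiopterin synthesis, at 0.90 ± 0.19 (limma adjusted p = 0.093 and 0.079). TNF itself, the classic activating cytokine, lay at the floor with a mean of 2.65 over the 9 arrays. It differed from vehicle by -0.04 ± 0.14 at 250 µg/ml (adjusted p = 0.91).

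Of 17 genes of prostanoid synthesis and reception 16 were measured, 9 above the floor, and none passed. PTGIS, which makes prostacyclin downstream of cyclooxygenase, had 8.82, 9.21 and 8.72 with vehicle, 7.25, 7.22 and 8.19 at 100 µg/ml and 7.16, 7.34 and 7.59 at 250 µg/ml. Every dose array lay below every vehicle array. The difference was -1.37 ± 0.27 at 100 µg/ml and -1.56 ± 0.27 at 250 µg/ml (SE, limma adjusted p = 0.15 and 0.0515). PTGDS, the prostaglandin D synthase, differed by -0.91 ± 0.58 at 250 µg/ml (adjusted p = 0.46), with vehicle array 2 at 6.61 beside 4.23 and 4.10 on the other vehicle arrays.

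The lists of parallel pathways gave no gene past the threshold among 17 STAT3 and gp130 genes, 21 AP-1 and immediate early genes and 22 interferon-stimulated genes. SOCS3, the feedback inhibitor that IL6 and LIF signalling induces, differed at 250 µg/ml by 0.11 ± 0.14 (limma adjusted p = 0.74), and PIAS3, an inhibitor of STAT3, by 1.23 ± 0.29 (adjusted p = 0.089). The AP-1 subunit JUNB differed by -1.45 ± 0.48 and DUSP6, a phosphatase of ERK kinases, by 1.57 ± 0.36 (adjusted p = 0.19 and 0.088). JUNB had 5.50, 7.68 and 6.09 with vehicle, so array 2 stood apart, and 4.93, 4.82 and 5.14 at 250 µg/ml. IRF9, of the interferon-activated ISGF3 complex, differed by -0.93 ± 0.32 and IFI44L by -0.86 ± 0.30 (adjusted p = 0.22 and 0.22).

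In a list of NRF2 targets, the genes of the antioxidant response, 2 of 9 measured genes passed as higher at 100 µg/ml (HMOX1 and SLC7A11) and 6 of 9 at 250 µg/ml. Of all genes 0.0633% passed at 100 µg/ml and 0.549% at 250 µg/ml, in either direction. The arrays at the dose lay above all vehicle arrays for 8 of the 9 at 100 µg/ml and for 9 of 9 at 250 µg/ml. This held for 6.41% and 8.61% of all genes. That list was put together with these results known, so its count is no independent evidence. SLC7A11, the cystine transporter, rose by 3.71 ± 0.38 at 100 µg/ml and 4.02 ± 0.38 at 250 µg/ml (limma adjusted p = 0.048 and 0.0089). GCLM, a subunit of the first enzyme of glutathione synthesis, PIR, the malic enzyme ME1 and the sulfiredoxin SRXN1 rose at 250 µg/ml by 1.57 to 2.45 log2 units. All 9 measured genes of that list had means above the floor. The count that passed at 100 µg/ml changed when single arrays were left out. It was 0 of 9 without vehicle array 1, or without array 1 or 2 of 100 µg/ml. It was 1 of 9 without vehicle array 2 or without array 3 of 100 µg/ml, and 3 of 9 without vehicle array 3. Without any 1 array of 250 µg/ml it was 0 of 9, although the differences at 100 µg/ml stay the same there. Only the spread is then estimated anew, from fewer arrays. With the array number as a block 0 of 9 passed at 100 µg/ml and 6 of 9 at 250 µg/ml, and HMOX1 and SLC7A11 at 100 µg/ml each had a limma adjusted p of 0.070. At 250 µg/ml the count was 2 without array 2 of that dose (HMOX1 and PIR), 5 to 7 without any other single array, and 1 (HMOX1) with only the 6 arrays of the comparison.

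**Figure D4:**
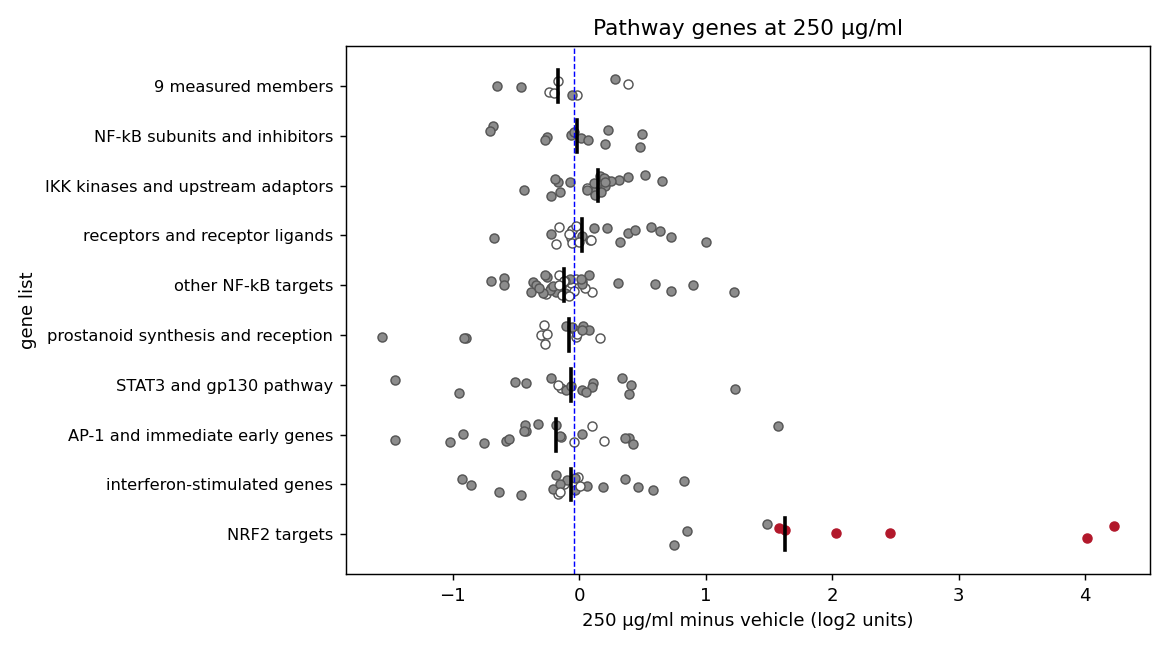
Difference between 250 µg/ml and vehicle in log2 units (horizontal axis) for each measured gene of the lists (rows), with open circles for genes at the floor, red for genes with a limma adjusted p under 0.05, black bars for list medians and the dashed line for the median of all genes (-0.04). The red points are 6 NRF2 targets, and no gene of the inflammatory lists is red.

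The label of the cells was compared with markers. Of 11 measured pigment epithelium markers 7 stood above the floor, among them KRT8 with a mean of 10.9 log2 units, OTX2 with 8.86 and MITF with 7.39. The melanocyte and pigment cell genes TYRP1 and PMEL differed at 250 µg/ml by -1.14 ± 0.77 and -0.68 ± 0.30 (limma adjusted p = 0.48 and 0.30). RPE65, RLBP1, BEST1 and TTR, which mark mature pigment epithelium, lay at the floor. Of 9 leukocyte and macrophage markers 4 stood above it, of which CD68, a lysosomal protein not limited to macrophages, had a mean of 9.17, and PTPRC, the pan-leukocyte marker, lay at the floor with 2.66. Above the floor stood 1 of 6 endothelial, 2 of 6 photoreceptor and 3 of 6 fibroblast markers. The fibroblast marker COL1A1 had 6.55 on vehicle array 2 beside 3.69 and 3.56 on the other vehicle arrays. No gene of the marker lists passed at either dose.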

How the data were processed

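The authors deposited log2 expression values from exon arrays, summarised per gene-level probe set. RMA, Partek and hg18 are named in the submitters' processing notes, and the sources used here do not give their settings. RMA normalizes arrays together and compresses folds near the floor. Of 17629 probe sets 14378 name 1 gene; symbols were updated through RefSeq, and the highest mean was kept for 169 genes with several, which left 14207. Differences were fitted with limma 3.58.1 (R 4.3.3) on all 9 arrays, 1 mean per group, checked on simulated data. Intervals are unadjusted. Named were the 10 genes, every list gene past the threshold (or its count), the 2 widest differences at 250 µg/ml per pathway list among genes above the floor, and 12 genes whatever their values. Members and lists were chosen with earlier results of these data known. Alternatives covered scaling, filters, probe sets, weights and left-out arrays. The number of arrays limits the precision. Deviations from the group means of same-numbered arrays correlated at 0.44 to 0.68 between both doses, taken as a pairing that comes from the data. Between a dose and vehicle they correlated at -0.14 to 0.26, and no pairing with vehicle was assumed.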

Additional observations from a re-analysis of the deposited data

How the results depend on the processing

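None of the 9 genes passed the threshold in any comparison in the 19 other settings, and the lowest limma adjusted p was 0.062, for IL1B at 100 µg/ml with array weights. Counts over all genes did move: at 100 µg/ml from 9 to 1 (only the 6 arrays) or 73 (array weights), and at 250 µg/ml from 78 to 1 and 234. Without single arrays they were 1 to 57 and 4 to 296, with the highest of each without vehicle array 3. The count at 250 µg/ml was 164 with median centring, 148 with quantile normalization, 132 without dim genes, which also left out CXCL8, IL6 and PTGS2, and 170 with a trended, robust fit. The genes past the threshold at 250 µg/ml were 55 higher and 23 lower, against 93 and 71 with median centring and 76 and 72 with quantile normalization. Without the arrays numbered 3 of both doses the counts were 47 and 167, and at 100 µg/ml 5 passed with quantile normalization. With the replicate block they were 3 and 122, and 0 between both doses. The block changed no call of the 9 genes, and NFKBIA had adjusted p = 0.24 in it at each dose. In that fit 3 of the 9 genes, IL1B, ICAM1 and NFKBIA, had an unadjusted limma p under 0.05 at each dose. This held for 17.1% of all genes at 100 µg/ml and 19.5% at 250 µg/ml. Of the NRF2 targets, 2 of 9 passed at 100 µg/ml, against 0 to 5 in the other settings, and 6 of 9 at 250 µg/ml, against 1 to 8. NFKBIA, ICAM1, IL1B and PTGS2 kept their direction against vehicle in all settings that held them. Directions of differences near 0 did not hold, nor did that of CCL2 at 250 µg/ml, and the cause was not tested. At 100 µg/ml TNFAIP3 was 0.00047 with median centring, 0.083 with quantile normalization, 0.085 with array weights and 0.067 without the arrays numbered 3, and IL6 was 0.023 with quantile normalization. At 250 µg/ml CXCL8 was 0.089 with quantile normalization. Between 250 and 100 µg/ml PTGS2 was -0.021 with median centring, -0.0066 with quantile normalization and -0.019 without the arrays numbered 3, and LIF was -0.013 with array weights. With single arrays left out the differences at 100 µg/ml ran from -0.059 to 0.24 for CXCL8, -0.19 to 0.036 for IL6, -0.51 to 0.21 for LIF and -0.063 to 0.067 for TNFAIP3. At 250 µg/ml they ran from -0.089 to 0.66 for CCL2, -0.11 to 0.037 for CXCL8 and -0.34 to 0.20 for LIF. Between both doses they ran from -0.19 to 0.082 for CCL2, -0.26 to 0.041 for CXCL8, -0.21 to 0.066 for ICAM1, -0.27 to 0.45 for LIF, -0.37 to 0.46 for NFKBIA and -0.039 to 0.069 for PTGS2. Values at the floor and the spread of NFKBIA, LIF and CCL2 limit what 3 arrays per group can show.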
